A study of Mus musculus with 8 samples.

Results

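The BCL2 family decides whether a stressed cell releases cytochrome c from its mitochondria and dies. Here 10 of its genes were followed in double-negative stage 3 (DN3) thymocytes, the immature T cells that undergo β-selection. They were chosen by symbol, and all 10 were present among the 16538 genes of the table. They comprise 3 anti-apoptotic genes (Bcl2, Bcl2l1 and Mcl1), 2 effectors (Bax and Bak1) and 5 BH3-only genes (Bcl2l11, Bbc3, Pmaip1, Bid and Bad). RNA was sequenced from DN3 cells sorted from 6-week-old C57BL/6 mice, with 4 control libraries (Sel1l-f/f, floxed Sel1l alleles without Cre) and 4 Sel1l CKO libraries (Sel1l-f/f hCD2cre+). SEL1L is a core component of endoplasmic reticulum-associated degradation (ERAD), which removes misfolded proteins from the endoplasmic reticulum (ER). Both genotypes carried the floxed alleles and only the CKO carried the human CD2-driven iCre, which is active from early thymic progenitors onward, so Cre itself and the loss of Sel1l cannot be told apart. The study describes its replicates as independent biological ones, without stating whether a library came from a single mouse or a pool, and p values measure the spread between these libraries.

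Anti-apoptotic members hold the effectors BAX and BAK in check, and the BH3-only proteins either occupy the anti-apoptotic members or engage the effectors directly. In thymocytes, IL-7 signalling maintains BCL2 before β-selection, MCL1 is needed for survival at several stages, and BIM (Bcl2l11) is a main killer during selection. Under lasting ER stress the transcription factors ATF4 and CHOP (encoded by Ddit3) are known from other cells to raise transcription of some BH3-only genes and to lower that of Bcl2, while many members are also controlled at the protein level, which RNA does not show.

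As a check of the labels, Sel1l (ENSMUSG00000020964.14) read 1.83, 1.66, 1.61 and 1.57 RPKM across control replicates 1 to 4, against 0.917, 0.876, 1.32 and 1.23 across Sel1l CKO replicates 1 to 4, which is -0.64 ± 0.14 on the log2 scale (SE, limma adjusted p = 0.0429). All 4 CKO libraries lay below all 4 controls, with more transcript left in CKO replicates 3 and 4 than in 1 and 2. The value counts reads over the whole gene and so includes exons outside the deleted part. When 1 library was left out at a time, the call was lost in 6 of 8 cases, without any 1 control and without CKO replicate 1 or 2 (adjusted p from 0.0834 to 0.123). DN3 markers were high in every library (Il2ra from 16.9 to 23.1 and Ptcra from 17.5 to 30.5 RPKM). The 11 listed DN3 markers summed to 636 to 694 RPKM in control and 584 to 602 in Sel1l CKO, with 0 past an adjusted p of 0.05. All but Il2ra had negative log2 fold changes (10 of 11). At an unadjusted p under 0.05 (limma) 4 of 11 were lower, beside 10.3% of all tested genes. Cd3e (limma adjusted p = 0.0672), Cd3g (0.106) and Bcl11b (0.11) were lower in every CKO library than in every control. Of the listed markers of other cells, those under 1 RPKM in every library were 5 of 5 for early progenitors, 5 of 6 for B cells, 4 of 5 for myeloid cells, 2 of 3 for NK cells, 5 of 5 for erythroid cells, 4 of 6 for stroma and 4 of 6 for later thymocytes, with Flt3 at 0.00304 or less, Itgam at 0.0172 or less and Cd4 at 0.238 or less. The exceptions were Cd79b (5.28 to 10.1 RPKM), Lyz2 (0.655 to 2.44), Nkg7 (21.7 to 38.3), Pecam1 (0.911 to 1.31), Cd8a (0.569 to 1.81), Cd8b1 (0.58 to 1.54) and the epithelial gene Epcam. Epcam was at 3.04 to 4.87 RPKM in control and 1.79 to 2.23 in Sel1l CKO and fell (-0.98 on the log2 scale, limma adjusted p = 0.00482). Summed levels in control and Sel1l CKO were 8.22 to 10.2 and 5.31 to 8.22 RPKM for the B cell list, 2.15 to 2.48 and 0.715 to 1.56 for the myeloid list, 31.2 to 38.4 and 21.8 to 34.0 for the NK list and 4.32 to 6.18 and 2.86 to 3.60 for the stroma list. Their part in the members' values was not tested. In RNA from bulk cells, fewer cells of a kind and less RNA per cell cannot be told apart. Between 32900253 and 50401359 reads per library were counted on genes.

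None of the 10 genes passed the test between genotypes, although Ddit3 and Atf4 rose in the same libraries. With limma on log2(RPKM + 0.01) and Benjamini-Hochberg adjustment over 10177 tested genes (mean of at least 0.1 RPKM), 0 of 10 members were called at an adjusted p under 0.05, against 3.85% of all tested genes (2.96% higher and 0.894% lower in Sel1l CKO). At an unadjusted p under 0.05 there was 1 of 10, Bad, against 19.7% of all genes. With limma voom on reads recovered from the RPKM steps, 0 of 10 members were called, against 4.30% of 11726 genes, and 0 had an unadjusted p under 0.05. The members' log2 fold changes were positive for 5 and negative for 5, with a median of -0.03, beside -0.01 over all tested genes. All 10 passed the filter on low values. For 9 of 10 members the 95% interval of the fold change lay within 1 log2 unit of no change on both sides, Pmaip1 being the exception. These intervals are per gene, not adjusted for the number of genes, and a p that misses the threshold does not show that the genotypes were alike.

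**Figure D1:**
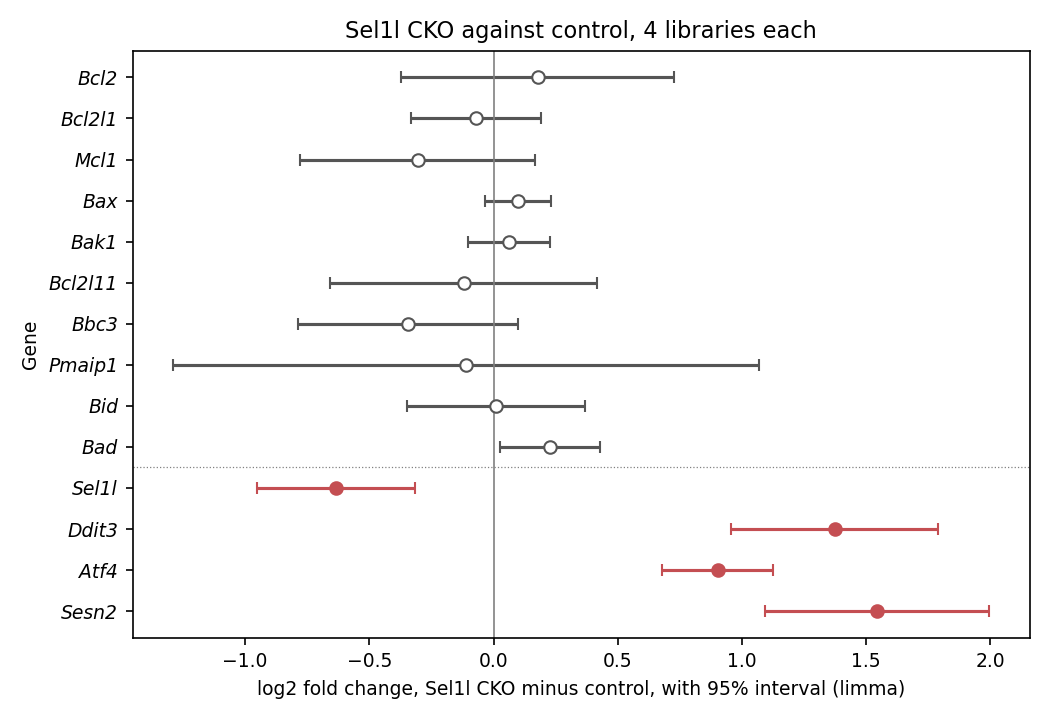
Log2 fold change (Sel1l CKO minus control, limma, x axis) with its 95% interval for the 10 BCL2 family genes above the dotted line and for Sel1l, Ddit3, Atf4 and Sesn2 below it, from 4 libraries per genotype. Filled red points passed an adjusted p of 0.05. Every BCL2 family interval but that of Bad (0.03 to 0.43) includes 0, and that of Pmaip1 is the widest.

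The upstream sequences of 3 BH3-only genes are shown. Bad is included because it was the only member whose libraries did not overlap between genotypes. It was not called (limma adjusted p = 0.204). Of all tested genes, 7.40% had no overlap and were higher in Sel1l CKO, and 6.32% had no overlap and were lower. The separation therefore does not set Bad apart from other genes. Bcl2l11 and Bbc3 are the members best known as transcriptional targets in stressed or cytokine-deprived lymphocytes. Each run holds the 250 bases before an annotated RefSeq start (GRCm38.p6, plus strand, 5′ to 3′), at chr19:6941611-6941860 for Bad, chr2:128125788-128126037 for Bcl2l11 and chr7:16310011-16310260 for Bbc3, the last within an intron of a longer Bbc3 transcript. Capitals mark GTAAACA (a forkhead-type motif), CCAAT (the NF-Y box) and GGGCGG (the GC box) on either strand, a match on the other strand appearing as its reverse complement.
Bad: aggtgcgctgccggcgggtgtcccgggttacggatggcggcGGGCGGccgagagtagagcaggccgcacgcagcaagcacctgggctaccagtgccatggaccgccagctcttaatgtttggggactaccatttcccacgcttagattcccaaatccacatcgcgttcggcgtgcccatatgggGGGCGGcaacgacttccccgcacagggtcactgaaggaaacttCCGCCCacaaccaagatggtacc
Bcl2l11: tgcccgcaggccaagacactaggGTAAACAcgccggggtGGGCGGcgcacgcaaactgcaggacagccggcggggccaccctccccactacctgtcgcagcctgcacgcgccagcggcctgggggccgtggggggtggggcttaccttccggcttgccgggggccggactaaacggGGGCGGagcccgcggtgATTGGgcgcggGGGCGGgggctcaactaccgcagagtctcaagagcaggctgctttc
Bbc3: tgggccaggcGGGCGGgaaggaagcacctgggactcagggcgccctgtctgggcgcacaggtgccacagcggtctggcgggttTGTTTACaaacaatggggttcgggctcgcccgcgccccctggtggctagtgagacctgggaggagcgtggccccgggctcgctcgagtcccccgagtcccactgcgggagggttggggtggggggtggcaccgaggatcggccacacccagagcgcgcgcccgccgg

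In these runs GTAAACA occurred once in Bcl2l11, starting 227 bases before the start, and once in Bbc3, 167 bases before it, while Bad held 3 GGGCGG matches and neither of the other motifs. Promoter windows (250 bases before to 50 after the start) were given for 9 of the 10 genes, in 15 windows. The element TGATGNAAN, to which ATF4 and CHOP bind with C/EBP partners, was found in 0 of these 15 windows and in 3.95% of 32851 windows of all genes. At so low a share, 15 windows may well hold none. It was also not found for Ddit3, Atf4 or Sesn2, which rose in Sel1l CKO, so its absence does not set the members apart. GTAAACA was found in 2 of the 15 windows (Bcl2l11 and Bbc3) and in 3.65% of all windows. CCAAT was found in 4 of the 15 (3 genes) and in 37.4% of all. GGGCGG was found in 10 of the 15 (7 genes) and in 35.7% of all. The 3 runs are rich in G and C, at 62.8% for Bad, 72.0% for Bcl2l11 and 72.4% for Bbc3. These letters describe the windows and say nothing of binding in these cells.

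Among the anti-apoptotic genes, Mcl1 dominated the transcript pool in both genotypes. Because the deposited RPKM divides by the whole gene span, introns included, long genes such as Bcl2 (span 176097 bases, merged exons 9157 bases) are placed low, and levels between genes were also compared after dividing by the length of the merged exons. On that scale Mcl1 was at 86.7 ± 22.1 RPKM in control and 70.1 ± 16.3 in Sel1l CKO (mean ± SD, n = 4). It made up 85.6% ± 2.09 of the summed level of the 3 anti-apoptotic genes in control and 81.5% ± 5.73 in Sel1l CKO, with libraries from 83.3% to 88.4% and from 73.0% to 85.2%, so the genotypes overlapped. Bcl2 was at 7.81 ± 0.471 and 9.30 ± 3.01 RPKM on exon length, and Bcl2l1 at 6.39 ± 0.740 and 6.08 ± 0.675.

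**Figure D2:**
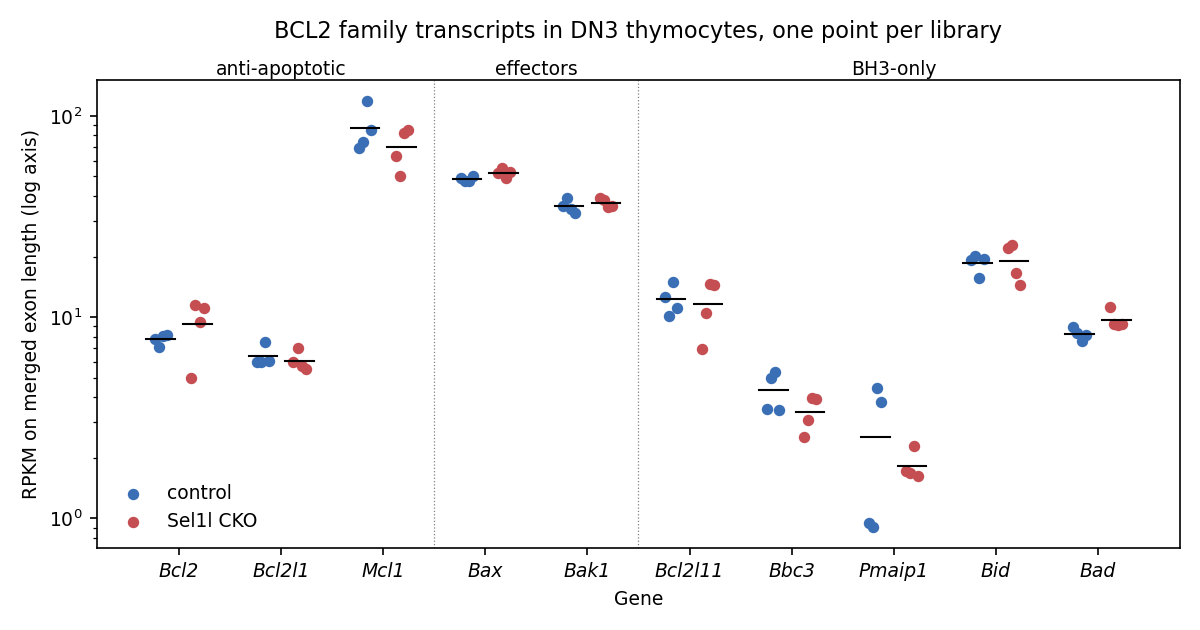
RPKM recalculated on merged exon length (log y axis) for the 10 BCL2 family genes (x axis), grouped by role, with 1 point per library, control in blue and Sel1l CKO in red, and black bars at the mean of 4 libraries. Mcl1, Bax and Bak1 lie above the other members in both genotypes, Pmaip1 lies lowest on average, and Bad is the gene whose colours do not overlap.

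In control cells the order on exon length was Mcl1, Bax, Bak1, Bid, Bcl2l11, Bad, Bcl2, Bcl2l1, Bbc3 and Pmaip1, and the order of the means was identical in Sel1l CKO. Neighbours whose control libraries overlapped were Bad and Bcl2, Bcl2 and Bcl2l1, and Bbc3 and Pmaip1. In Sel1l CKO the ranges of Mcl1 and Bax also overlapped (50.2 to 84.7 against 48.9 to 55.4 RPKM), as did those of Bid and Bcl2l11, Bcl2l11 and Bad, Bad and Bcl2, and Bcl2 and Bcl2l1. On the deposited gene-span scale Bcl2 ranked 10 of 10 instead of 7, so the place of the long genes rests on the length used. The values that follow are deposited RPKM on gene span.

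Bcl2, the founding anti-apoptotic member (ENSMUSG00000057329.7, chr1:106538178-106714274, minus strand), read 0.406, 0.372, 0.421 and 0.426 RPKM across control replicates 1 to 4, against 0.259, 0.601, 0.494 and 0.580 across Sel1l CKO replicates 1 to 4. The controls lay close together, while the CKO libraries took in both extremes, with replicate 1 below every control and the other 3 above every control. Means were 0.406 ± 0.0245 RPKM for control and 0.484 ± 0.157 RPKM for Sel1l CKO (SD, n = 4), with a log2 fold change of 0.18 ± 0.24 (SE, limma adjusted p = 0.712) and a 95% interval from 77.3% to 166% of control. The value rested on single libraries, at 0.45 without CKO replicate 1 (limma adjusted p = 0.0847), 0.05 without CKO replicate 2 and 0.07 without CKO replicate 4, none past the threshold. This gene had 1730 to 5334 reads per library.

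The 3 genes whose log2 values followed Bcl2 most closely over the 8 libraries, of 10176 compared, were Slc1a5, a glutamine transporter (Pearson r = 0.93), and the RNA helicase genes Dhx33 (r = 0.93) and Ddx42 (r = 0.93). Each had its lowest value in CKO replicate 1, and these r values describe 8 libraries of 2 genotypes only. Dhx33, for example, was at 3.32 RPKM in CKO replicate 1 and at 3.43 to 3.60 RPKM elsewhere, so likeness in pattern did not mean a like size of difference.

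Mcl1, whose protein turns over quickly (ENSMUSG00000038612.16, chr3:95658788-95663176, plus strand), read 53.8, 58.0, 92.1 and 66.0 RPKM across control replicates 1 to 4, against 49.3, 39.1, 63.8 and 66.0 across Sel1l CKO replicates 1 to 4. Control replicate 3 was highest and CKO replicate 2 lowest, and the other libraries of the genotypes interleaved. The log2 fold change was -0.31 ± 0.21 (SE, limma adjusted p = 0.439), with an interval from 58.3% to 112% of control. It was -0.15 without control replicate 3, -0.16 without CKO replicate 2 and -0.06 with array weights. Bcl2l1, which encodes BCL-XL (ENSMUSG00000007659.18, chr2:152780668-152831728, minus strand), read 0.541, 0.540, 0.674 and 0.542 RPKM across control replicates 1 to 4, against 0.540, 0.633, 0.517 and 0.495 across those of Sel1l CKO. Its controls lay between 0.540 and 0.542 RPKM apart from replicate 3, and the CKO libraries spread around them. The log2 fold change was -0.07 ± 0.11 (SE, limma adjusted p = 0.762), with an interval from 79.5% to 114% of control.

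The effectors were the steadiest members. Bax (ENSMUSG00000003873.11, chr7:45461697-45466898, minus strand) read 14.9, 14.4, 14.3 and 15.2 RPKM across control replicates 1 to 4, against 15.7, 16.8, 14.8 and 15.9 across Sel1l CKO replicates 1 to 4. Only CKO replicate 3 fell within the control range. The log2 fold change of Bax was 0.10 ± 0.06 (SE, limma adjusted p = 0.381), with an interval from 97.7% to 118% of control. Bak1 (ENSMUSG00000057789.14, chr17:27019810-27029009, minus strand) read 9.33, 10.3, 9.03 and 8.60 RPKM across control replicates 1 to 4, against 10.3, 9.94, 9.26 and 9.33 across those of Sel1l CKO, and the genotypes overlapped over most of their range. Its log2 fold change was 0.06 ± 0.07 (SE, limma adjusted p = 0.66), with an interval from 93.2% to 117% of control. Neither effector's interval reached below 93.2% or above 118% of control. Bax made up 57.8% ± 2.34 of the summed exon-length level of the pair in control and 58.4% ± 1.22 in Sel1l CKO. The Bak1 span lies wholly within Ggnbp1 on the opposite strand, which had a mean of 0.0502 RPKM, and the sources do not say whether counting used the strand.

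Among the BH3-only genes, Bad, whose protein is held inactive by survival kinases (ENSMUSG00000024959.14, chr19:6941861-6951899, plus strand), read 2.27, 2.12, 1.94 and 2.07 RPKM across control replicates 1 to 4, against 2.85, 2.35, 2.33 and 2.34 across Sel1l CKO replicates 1 to 4. Every CKO library lay above every control, by a narrow gap (2.27 against 2.33 RPKM), and CKO replicate 1 was well above the rest. Means were 2.10 ± 0.135 RPKM for control and 2.47 ± 0.255 RPKM for Sel1l CKO (SD, n = 4). The log2 fold change of 0.23 ± 0.09 (SE) did not pass over all genes (limma adjusted p = 0.204), and its interval ran from 102% to 134% of control. In an exact two-sided permutation test of this gene alone, p was 0.0286, the smallest that 70 assignments of 8 libraries allow. Any gene with separate libraries gets this value, so it adds nothing to the separation. The next lowest exact p of a member was 0.0857, for Bax. Bad was thus 1 of 10 members with separate libraries and higher values in Sel1l CKO, beside 7.40% of all tested genes, and 0 of 10 members were separate and lower, beside 6.32%. Bad shares 620 bases with Gpr137 on the opposite strand (mean 3.64 RPKM), whose reads may not be fully separated from it.

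Bcl2l11, which encodes BIM (ENSMUSG00000027381.16, chr2:128126038-128162547, plus strand) and has the forkhead-type match shown above, read 2.78, 2.24, 3.30 and 2.45 RPKM across control replicates 1 to 4, against 1.52, 2.32, 3.22 and 3.17 across those of Sel1l CKO. CKO replicate 1 was the lowest of the 8, as for Bcl2, and CKO replicates 3 and 4 were near the top of the control range. The log2 fold change was -0.12 ± 0.24 (SE, limma adjusted p = 0.807), with an interval from 63.4% to 133% of control, and it turned to 0.11 without CKO replicate 1. Bbc3, which encodes PUMA (ENSMUSG00000002083.13, chr7:16308393-16318205, plus strand), read 0.862, 1.24, 1.33 and 0.855 RPKM across control replicates 1 to 4, against 0.630, 0.767, 0.980 and 0.973 across those of Sel1l CKO. Control replicates 2 and 3 and CKO replicates 1 and 2 were the highest and lowest libraries, with the other 4 between them. Its log2 fold change was -0.34 ± 0.20 (SE, limma adjusted p = 0.366), the most negative of the 10, with an interval from 57.9% to 107% of control, on 205 to 508 reads per library.

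Bid, which caspase-8 cleaves to link death receptors to mitochondria (ENSMUSG00000004446.12, chr6:120891930-120916853, minus strand), read 2.74, 2.87, 2.24 and 2.76 RPKM across control replicates 1 to 4, against 3.16, 3.25, 2.37 and 2.05 across those of Sel1l CKO. CKO replicates 1 and 2 were the highest libraries and CKO replicate 4 the lowest, around the controls. The log2 fold change was 0.01 ± 0.16 (SE, limma adjusted p = 0.982), with an interval from 78.4% to 129% of control. Bid shares 913 bases with Bcl2l13 on the opposite strand (mean 1.78 RPKM), whose reads may not be fully separated from it. Pmaip1, which encodes NOXA, a partner of MCL1 (ENSMUSG00000024521.8), read 0.372, 0.359, 1.75 and 1.50 RPKM across control replicates 1 to 4, against 0.677, 0.663, 0.905 and 0.639 across those of Sel1l CKO. The controls fell into a low pair and a high pair, and all 4 CKO libraries lay between them. Its log2 fold change was poorly determined, at -0.11 ± 0.52 (SE, limma adjusted p = 0.923), with an interval from 40.9% to 210% of control. With 105 to 428 reads per library, it was the least counted member.

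**Figure D3:**
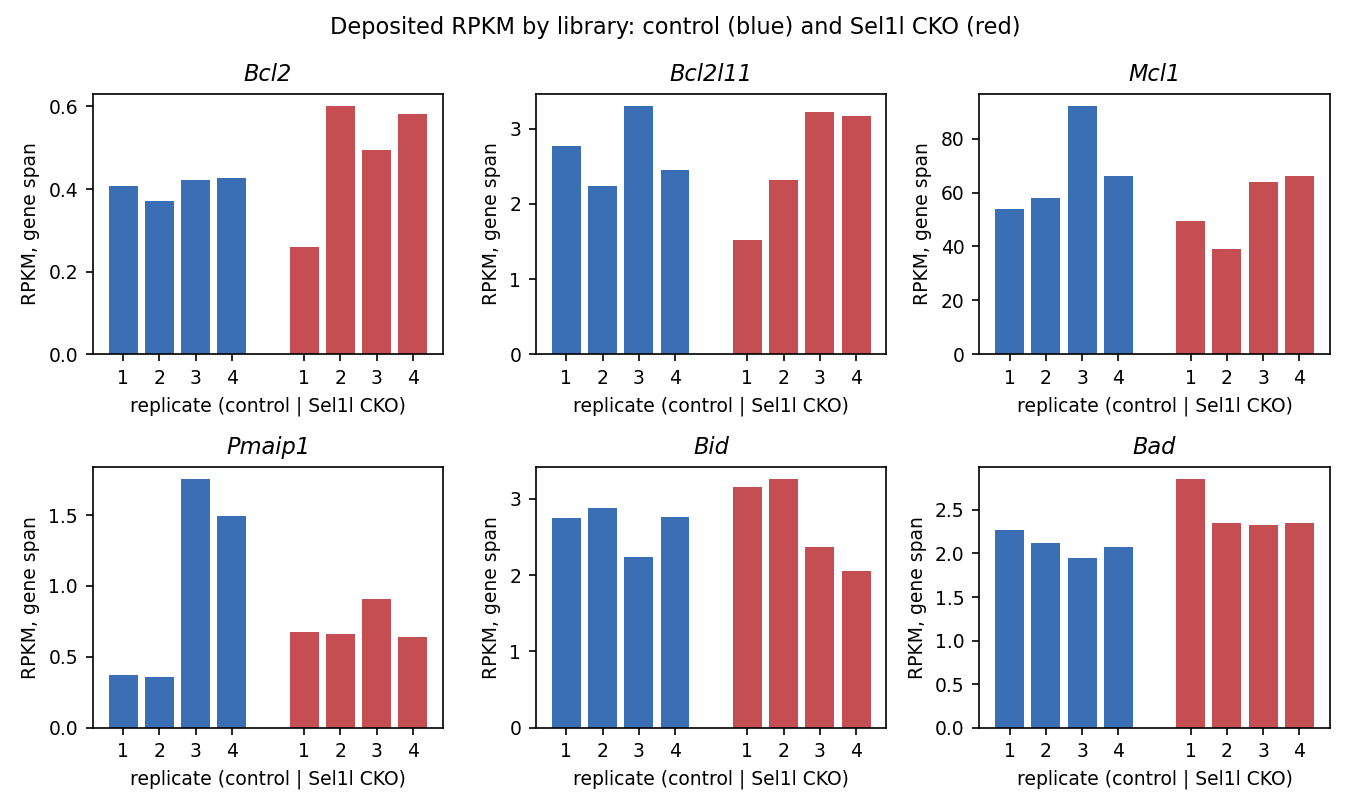
Deposited RPKM on gene span (y axes, from 0) of Bcl2, Bcl2l11, Mcl1, Pmaip1, Bid and Bad by replicate number (x axes), control in blue and Sel1l CKO in red, 1 bar per library with no error bars. CKO replicate 1 has the lowest bar for Bcl2 and Bcl2l11 and the highest for Bad, and the Pmaip1 bars of control replicates 3 and 4 stand above all others.

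Averaged over the genotypes, several members differed more between replicates 3 and 4 and replicates 1 and 2 than between genotypes. In a limma fit with genotype and this split as terms, 5 of 10 members had an unadjusted p under 0.05 (Mcl1, Bak1, Bcl2l11, Pmaip1 and Bid) against 16.1% of all genes. At an adjusted p under 0.05 there were 0 of 10, against 0.992% of all genes. The split was chosen with earlier results of these libraries known. Its p values and these counts therefore only describe the libraries, and cannot test whether the members stand out. Replicates 3 and 4 were higher by 0.52 ± 0.11 on the log2 scale for Mcl1 (SE, limma adjusted p = 0.115), by 0.48 ± 0.18 for Bcl2l11 (adjusted p = 0.264) and by 1.15 ± 0.36 for Pmaip1 (adjusted p = 0.218). Bid was at -0.36 ± 0.11 in the same contrast (limma adjusted p = 0.208). These values average over the genotypes. For Mcl1, replicates 3 and 4 both lay above replicates 1 and 2 in each genotype, and for Bak1 both lay below. For Pmaip1, Bcl2l11 and Bid the shifts were not alike in control and Sel1l CKO. Pmaip1 went from 0.372 and 0.359 RPKM to 1.75 and 1.50 in control, but from 0.677 and 0.663 to 0.905 and 0.639 in Sel1l CKO. For Bcl2l11 and Bid the larger shift was in Sel1l CKO, where Bcl2l11 went from 1.52 and 2.32 to 3.22 and 3.17 RPKM. In control, Bcl2l11 went from 2.78 and 2.24 to 3.30 and 2.45 RPKM. The labels name no batch, and what the replicate numbers share was not tested.

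Within replicates 1 and 2, the log2 difference of Sel1l CKO from control was 0.86 for Pmaip1, and within replicates 3 and 4 it was -1.08, so its direction turned. Direction also turned for Bcl2l11 (-0.41 and 0.17), Bcl2l1 (0.11 and -0.25) and Bid (0.19 and -0.17). It was alike in both for Mcl1 (-0.35 and -0.26), Bbc3 (-0.57 and -0.12), Bad (0.24 and 0.22), Bax (0.15 and 0.05), Bak1 (0.05 and 0.08) and Bcl2 (0.03 and 0.33). These are differences of means of 2 libraries, with no test. Immediate early genes, which respond within minutes to handling and stress, were higher in replicates 3 and 4 of both genotypes for all 8 listed, and the 5 heat shock genes stood highest in control replicates 3 and 4 but not in CKO replicates 3 and 4. The 8 listed immediate early genes summed to 334 to 1510 RPKM in control and 163 to 575 in Sel1l CKO, with 0 of 8 called. The Egr1 values of control replicates 1 to 4 were 5.26, 4.94, 48.4 and 34.7 RPKM, and those of CKO replicates 1 to 4 were 3.07, 2.92, 7.67 and 8.34 RPKM. The 5 heat shock genes summed to 121 to 2590 RPKM in control and 58.6 to 86.1 in Sel1l CKO, with 3 of 5 called lower, and the Hspa1a values of control replicates 1 to 4 were 50.5, 16.1, 460 and 1060 RPKM, against 7.18, 3.75, 2.14 and 3.15 RPKM in CKO. The part of these genes in the values of Pmaip1 and Mcl1 was not tested.

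Around the 10 members, 89 further genes of the pathway were listed, of which 87 were in the table and 78 were tested. Of the 78, 3 rose and 0 fell (limma, adjusted p under 0.05), with a median log2 fold change of -0.02, beside 2.96% and 0.894% of all genes. At an unadjusted p under 0.05 there were 7 of 78 higher, beside 9.40% of all tested genes, and 9 of 78 lower, beside 10.3%. Of these 78 genes, those that passed were the stress factors Ddit3 and Atf4 and the p53-list gene Sesn2, an antioxidant sestrin that is also a known target of ATF4. Ddit3 was at 2.80 ± 0.690 RPKM in control and 7.19 ± 1.14 in Sel1l CKO (SD, n = 4), a log2 fold change of 1.37 ± 0.18 (SE, limma adjusted p = 0.00355). Atf4 was at 114.7 ± 15.8 and 213.1 ± 11.5 RPKM, with 0.90 ± 0.10 (SE, limma adjusted p = 0.00107), and Sesn2 at 0.500 ± 0.0836 and 1.50 ± 0.395 RPKM, with 1.54 ± 0.20 (SE, limma adjusted p = 0.00283). For all 3 genes every CKO library exceeded every control.

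**Figure D4:**
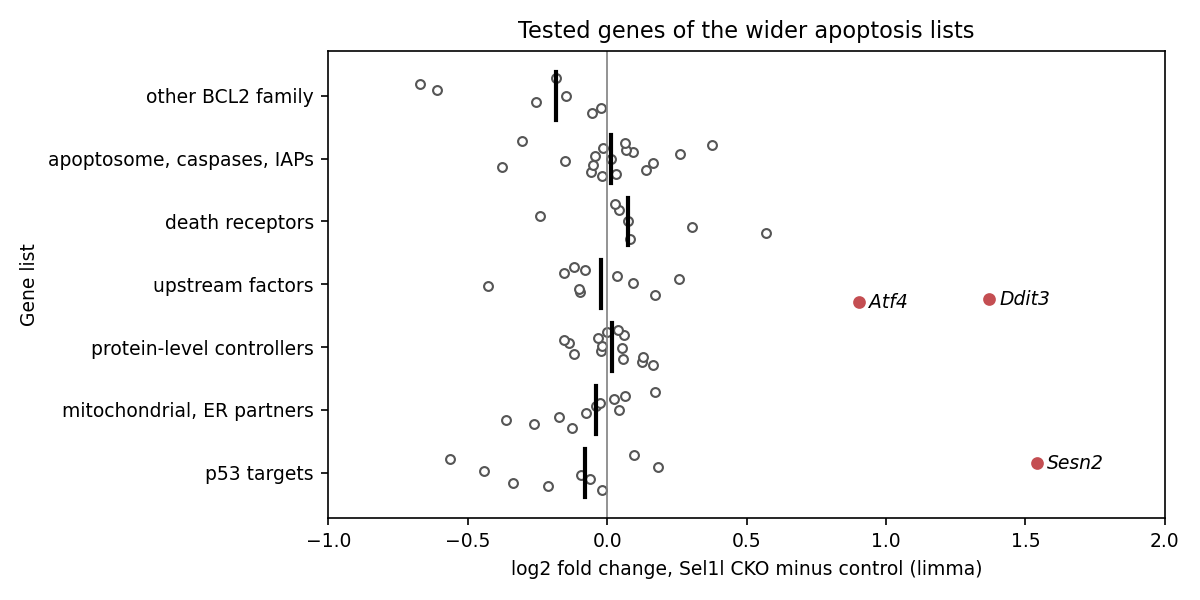
Log2 fold change (Sel1l CKO minus control, limma, x axis) of each tested gene of 7 pathway lists (y axis), with 1 point per gene and a black bar at each list's median. Filled red points passed an adjusted p of 0.05, which Ddit3, Atf4 and Sesn2 did, and every other point lies between -0.67 and 0.57.

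By list, the other BCL2 family genes (7 of 14 in the table tested, the rest below the filter) had 0 called and 7 of 7 negative values, with a median of -0.18. Over all tested genes, 5330 of 10177 values were negative. The most negative of the 7, Bnip3 (-0.67, limma adjusted p = 0.129), lay near the filter, at 0.158 RPKM in control and 0.0944 in Sel1l CKO. The 17 caspase, apoptosome and inhibitor of apoptosis genes had 0 called, with a median of 0.01. The 7 tested death receptor genes, the 14 genes that control the members' proteins and the 11 mitochondrial and ER partners had 0 called each, with medians of 0.08, 0.02 and -0.04. In the list of 12 upstream factors 2 were called, and in the 10 tested p53 targets 1 was called. Without Sesn2, no p53 target passed, and Trp53 itself was at -0.12 ± 0.07 (log2, SE). At an unadjusted p under 0.05 (limma), 3 of the 10 p53 targets were lower, beside 10.3% of all tested genes. On the same measure 1 was higher, beside 9.40%. Some genes short of the threshold, chosen here after their values were seen, were the caspase inhibitor Xiap (-0.31 ± 0.09, limma adjusted p = 0.114), the IL-7 receptor gene Il7r (-0.43 ± 0.13, limma adjusted p = 0.117) and Cflar, an inhibitor of caspase-8 (0.57 ± 0.22, limma adjusted p = 0.207).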

How the data were processed

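DN3 RNA was analysed in 8 libraries, grouped by the genotype in the labels. The authors prepared libraries with a stranded mRNA kit and, per the study's methods and the submitters' processing notes, used STAR 2.5.2b for alignment to GRCm38, HTSeq 2.7 for counts per protein-coding gene and DESeq2 for their own tests. The authors deposited RPKM values, 1 column per library. Whether counting used the strand is not given in the sources used here.

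Low values step in units of 1 read on GENCODE M21 gene spans, introns included, for 75.9% of genes (tolerance 0.02 reads in every library), against 3.0% on exon length. Reads of 15461 genes were recovered, 3755 with a length solved from the values, among them Bax, Bbc3, Pmaip1 and Bad. Depth was 32900253 to 50401359 reads per library, and Pmaip1 and Bbc3 had the fewest reads among the members. Exon-length levels assume that the counted reads came from exons.

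Genes averaging at least 0.1 RPKM were tested as log2(RPKM + 0.01) with limma 3.58.1 (R 4.3.3, trended variance, genotype alone in the model, two-sided, Benjamini-Hochberg over all tested genes). Fold changes are on this scale. Tables were made with pandas 2.3.3 and numpy 2.4.6 and figures with matplotlib 3.10.9 (Python 3.11.15). Promoter sequences came from RefSeq (GRCm38.p6).

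Named are all members, Sel1l, Ddit3, every called gene of the pathway lists (at most 12) and the 3 genes most like the called member with the largest change, or Bcl2 where none is called. The members and lists were chosen with earlier results of these data known. The alternatives were pseudocounts of 0.1 and 1, no filter, a mean of at least 1 (also with the pseudocount of 0.1), same-sum, median-of-ratios and quantile scaling, no trend, array weights, a replicate block, the replicate split as a term, voom on recovered reads (mean of at least 10), exon length and leaving out each library.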

Additional observations from a re-analysis of the deposited data

Results flagged for a closer look

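Within a genotype, 1 library lay far from the other 3 (by Dixon's test at the 95% level) for 3 genes, among 28 groups of 4 libraries checked, of which chance flags about 1 in 20. Bcl2l1 was at 0.674 RPKM in control replicate 3 against 0.54 to 0.542 RPKM in the other controls. Pmaip1 was at 0.905 RPKM in Sel1l CKO replicate 3 against 0.639 to 0.677 RPKM in the other CKO libraries. Bad was at 2.85 RPKM in Sel1l CKO replicate 1 against 2.33 to 2.35 RPKM, and the other 3 CKO libraries still lay above all 4 controls.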

How the results depend on the processing

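No member was called in any of the 22 alternative fits that tested it, and the lowest adjusted p was 0.0847 (Bcl2 without Sel1l CKO replicate 1). A filter at a mean of 1 RPKM leaves 6 of 10 members tested. The wider lists had 3 calls in 20 of these fits, 4 with array weights (Cflar added) and 2 on exon length, where Ddit3 was not rescaled. For Sel1l, -0.64 was no longer past the threshold without the filter (adjusted p = 0.0859), with same-sum scaling (0.0802), without the trend (0.0529) and with the replicate block (0.0900), and leaving out 1 library gave -0.74 to -0.54. Direction turned, with no call, under array weights for Bcl2l11 (0.17), Pmaip1 (0.05) and Bid (-0.18), and leaving out 1 library gave -0.25 to 0.11 for Bcl2l11, -0.47 to 0.28 for Pmaip1, -0.09 to 0.13 for Bid, 0.05 to 0.45 for Bcl2, -0.41 to -0.15 for Mcl1 and -0.14 to 0.01 for Bcl2l1. The cause was not tested. Bcl2 ranked 7 on exon length instead of 10 on gene span, by the construction of the scale. The replicate block gave 278 calls over all genes against 392, with 243 in both (62.0% of the 392 and 87.4% of the 278), and 0 of 10 members. Deviations of same-numbered libraries correlated at 0.08, 0.10, 0.22 and 0.06 (Pearson r across genes). Those of differently numbered libraries correlated at -0.23 to 0.24. Whether the numbers pair the libraries was not tested. The calls over all genes ranged from 233 to 344 when 1 library was left out and reached 665 with array weights.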
